A study of Mus musculus with 18 samples.

Results

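The alpha-defensin genes of the mouse were described as 1 gene family across 18 ileum libraries. A gene counted as a member when its symbol began with Defa followed by a digit or a hyphen, whatever its biotype. This gave 45 of the 55487 genes counted, of which 28 were annotated as protein-coding and 17 as pseudogenes. The study asked about the role of PPARα in the intestinal epithelium and used a mouse strain carrying the CAG-Ppara,-EGFP cassette at the Col1a1 locus. Ppara encodes PPARα, a nuclear receptor activated by fatty acids. A CAG promoter drives Ppara and EGFP from this cassette once Cre recombinase has inverted it. In mice that also carry Villin-CreERT2, a tamoxifen-dependent Cre made in the intestinal epithelium, this occurs in epithelial cells alone, so the other layers of the gut wall keep the silent cassette. The 3 groups were control (no Villin-CreERT2), IEC-Ppara heterozygous (1 copy of the cassette with Villin-CreERT2) and IEC-Ppara homozygous (both copies with Villin-CreERT2), each with 6 mice and 1 library per mouse. The control group held 3 females and 3 males, and the heterozygous and homozygous groups each held 2 females and 4 males. The study used littermates on a C57BL6/J background, 8 to 13 weeks of age, and does not state which mice shared a litter. All mice received tamoxifen at 100 mg/kg daily for 3 days and were assessed 2 weeks later. RNA came from ileum of whole thickness, so muscle, stroma and lymphoid tissue contributed to each library together with the epithelium.

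Alpha-defensins are small cationic antimicrobial peptides, called cryptdins in the mouse intestine. Paneth cells at the base of the small intestinal crypts store them in granules as inactive precursors, which the metalloprotease Mmp7 cleaves, and release them into the crypt lumen. The peptide fold depends on pairs of cysteines that form disulfide bonds. Mice also have cryptdin-related sequence peptides, which share the signal peptide and prosegment of cryptdins but have a different spacing of cysteines in the mature peptide. In contrast to human neutrophils, mouse neutrophils do not make alpha-defensins. In RNA from whole tissue, fewer Paneth cells and less alpha-defensin RNA per Paneth cell cannot be told apart.

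All 45 members lay on chromosome 8 (GRCm38). A stretch of 724 kb, at chr8:21025545-21750000, held 41 of them. The other 4, the pseudogenes Defa-ps12, Defa-ps13, Defa-ps14 and Defa-ps15, lay at chr8:19210462-19474732 and had 0 counts in all 18 libraries. The coding members were of different kinds, and the difference is shown here because the largest decrease of a coding member fell within the smaller kind. Of the 25 coding members with enough counts for a test, 20 had 93 to 95 codons with 6 cysteine codons (7 in Defa41). The other 5, Defa29, Defa38, Defa39, Defa42 and Defa43, had 116 codons with 11 cysteine codons, were all on the minus strand and carry CRS1C as a synonym in the RefSeq gene table. The last 180 coding bases, stop codon included, of the highest member of the first kind (Defa24) and of 4 members of the second kind follow, 5′ to 3′ on the coding strand, with cysteine codons in capitals. Defa43 was left out because its sequence matched that of Defa42.
Defa24: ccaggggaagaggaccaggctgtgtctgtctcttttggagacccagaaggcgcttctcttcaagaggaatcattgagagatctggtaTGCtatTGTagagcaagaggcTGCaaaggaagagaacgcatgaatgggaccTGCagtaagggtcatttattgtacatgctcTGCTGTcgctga
Defa39: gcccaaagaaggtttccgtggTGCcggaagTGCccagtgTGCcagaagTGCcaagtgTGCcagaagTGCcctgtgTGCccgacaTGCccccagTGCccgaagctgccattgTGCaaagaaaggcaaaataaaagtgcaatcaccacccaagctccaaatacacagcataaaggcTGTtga
Defa29: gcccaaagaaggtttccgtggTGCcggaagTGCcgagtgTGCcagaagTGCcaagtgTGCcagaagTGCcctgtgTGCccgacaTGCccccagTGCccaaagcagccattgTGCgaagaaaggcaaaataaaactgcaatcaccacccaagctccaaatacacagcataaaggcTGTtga
Defa38: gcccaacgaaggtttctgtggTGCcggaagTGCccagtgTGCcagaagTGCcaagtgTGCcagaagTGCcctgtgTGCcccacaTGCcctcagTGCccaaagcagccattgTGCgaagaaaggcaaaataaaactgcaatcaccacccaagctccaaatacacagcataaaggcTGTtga
Defa42: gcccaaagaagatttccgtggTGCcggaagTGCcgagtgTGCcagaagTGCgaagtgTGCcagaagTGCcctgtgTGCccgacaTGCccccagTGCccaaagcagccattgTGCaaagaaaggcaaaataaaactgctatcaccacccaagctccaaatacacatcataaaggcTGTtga
The positions of these genes were chr8:21734494-21735471 on the plus strand for Defa24, and on the minus strand chr8:21702519-21703645 for Defa39, chr8:21325887-21327020 for Defa29, chr8:21095074-21096050 for Defa38 and chr8:21455445-21456560 for Defa42. Sequences and positions are those of the GENCODE M21 annotation. In the 4 genes of the second kind the cysteine codons stood 1 codon in 3 over most of the stretch that held them and 1 closed the reading frame, whereas in Defa24 they were unevenly spaced and the final pair was adjacent. Over their 351 coding bases Defa39 differed from Defa29 at 12 positions and from Defa38 at 11.

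Of the 17 pseudogenes, 3 had enough counts for a test, and their whole annotated transcripts are shown because 2 of them changed. In Defa-ps6 and Defa-ps1 the capitals mark the first in-frame stop codon, at codon 64 of 94. In Defa-ps7 no base is marked.
Defa-ps6: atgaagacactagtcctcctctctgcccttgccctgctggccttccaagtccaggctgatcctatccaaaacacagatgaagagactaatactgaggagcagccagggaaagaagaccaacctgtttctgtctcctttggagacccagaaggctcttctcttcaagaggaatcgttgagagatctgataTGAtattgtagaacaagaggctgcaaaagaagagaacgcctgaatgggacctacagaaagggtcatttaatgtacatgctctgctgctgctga
Defa-ps1: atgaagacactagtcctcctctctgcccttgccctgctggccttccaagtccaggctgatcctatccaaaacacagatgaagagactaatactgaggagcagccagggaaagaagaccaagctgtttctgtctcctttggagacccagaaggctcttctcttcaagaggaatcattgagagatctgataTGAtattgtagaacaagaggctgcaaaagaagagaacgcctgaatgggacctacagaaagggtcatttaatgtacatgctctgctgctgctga
Defa-ps7: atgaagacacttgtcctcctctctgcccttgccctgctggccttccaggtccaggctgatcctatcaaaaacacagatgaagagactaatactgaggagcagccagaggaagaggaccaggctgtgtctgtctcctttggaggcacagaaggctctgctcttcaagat
Defa-ps6 was at chr8:21225406-21226247 and Defa-ps1 at chr8:21695012-21695853, both on the plus strand, and Defa-ps7 was at chr8:21232066-21232233 on the minus strand. Counted from the first base of Defa-ps6, the transcripts of Defa-ps6 and Defa-ps1 differed by C121G and G174A, with the Defa-ps6 base first. In Defa24, which has the same 282 coding bases in length, codon 64 was the first of the 6 cysteine codons, so that the stop codon of both pseudogenes stood at its place. The 168 bases of Defa-ps7 were 98.2% identical to the start of Defa38, a gene of the kind with 11 cysteine codons.

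Promoters were looked at because members of the family moved together between libraries. The RefSeq promoter table (GRCm38.p6) held 16 of the 45 members. The 250 bases before the annotated start of Defa22, of the first kind, and Defa38, of the second, are shown 5′ to 3′ on the coding strand. All 351 bases of the annotated Defa38 transcript are coding, against 282 of 419 for Defa22. The Defa38 stretch therefore runs up to the start codon and the Defa22 stretch does not. Capitals mark the motif CTTTGAT, which resembles the sites of TCF and LEF factors of the Wnt pathway, and the motif TATAAA, on either strand.
Defa22 (chr8:21162027-21162276, plus strand): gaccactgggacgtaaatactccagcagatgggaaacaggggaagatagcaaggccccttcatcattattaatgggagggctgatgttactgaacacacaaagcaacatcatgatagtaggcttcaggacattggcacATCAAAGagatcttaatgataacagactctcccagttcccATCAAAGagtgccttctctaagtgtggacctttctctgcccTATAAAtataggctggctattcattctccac
Defa38 (chr8:21096051-21096300, minus strand): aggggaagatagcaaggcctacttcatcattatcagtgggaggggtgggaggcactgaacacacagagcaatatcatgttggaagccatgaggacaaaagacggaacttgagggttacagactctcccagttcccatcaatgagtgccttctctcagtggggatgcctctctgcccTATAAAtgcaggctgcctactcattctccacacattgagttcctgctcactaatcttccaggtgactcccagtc
CTTTGAT was present on either strand in the 300-base promoters of 13 of the 16 members (81.3%) and in 3.73% of the 32851 promoters of the table. The 3 without it were Defa38, Defa42 and Defa43, the only members of the kind with 11 cysteine codons that the table held. TATAAA was present in 15 of the 16 (93.8%), all but Defa28, against 13.6% of all promoters. CTTTGAA, which differs from CTTTGAT in the last letter (5.13% of all promoters), and AGGTCA (16.3%), a hexamer bound by nuclear receptors, were in 0 of the 16. At these shares, 0 of 16 is no result about these promoters. The table held no promoter of Defa39, Defa29, Defa-ps6 or Defa-ps7. The 13 promoters with CTTTGAT were 58.7% to 100% identical to each other and the 3 without it 97.3% to 100%. The promoters of either set are therefore not independent, and a match of letters does not show that a factor binds.

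Some members could not be counted apart from each other. Counting was stated to use uniquely aligned, unambiguous reads. Nonetheless, Defa42 had 3471 to 8517 counts per library although every 150-base window of its transcript, the read length, also occurred in another gene's transcript. The same held for Defa2, Defa31, Defa33 and Defa37. Defa42 and Defa43, which have the same coding sequence, differed by only 2 to 36 counts in any library. Defa36 and Defa37 differed by 12 to 45 counts, and Defa23 and Defa31 by 16 to 97. In each of these 3 pairs the difference was below 1 counting SD (the square root of the summed counts) in 18 of 18 libraries, so the genes of a pair are not independent observations. Sharing a coding sequence was not enough for this, since Defa17 had 5163 to 8920 counts and Defa3, with the same coding sequence, 2771 to 4909. Another 12 tested members had no window in common with another gene, among them Defa24, Defa29, Defa38, Defa39, Defa-ps1, Defa-ps6 and Defa-ps7, which carry most of the results below. How the shared reads were assigned was not tested.

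**Figure D1:**
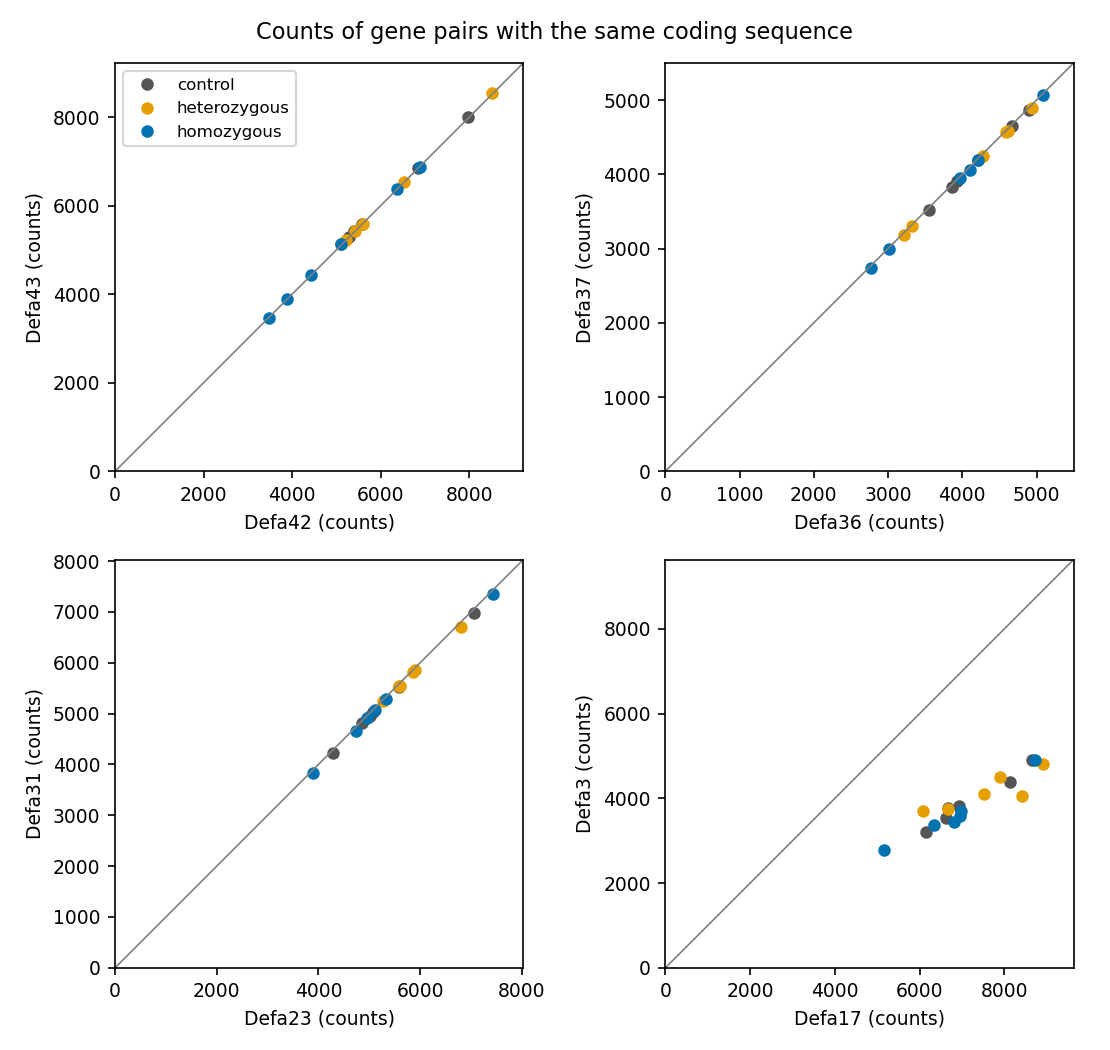
Counts of the second gene against counts of the first gene of 4 pairs with the same coding sequence, 1 point per library (18 libraries, 3 groups), with the line of equal counts. The pairs Defa42 and Defa43, Defa36 and Defa37, and Defa23 and Defa31 lie on the line in every library, and Defa17 and Defa3 lie off it.

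The family was abundant. Together the members held 372859 to 751587 counts per library, or 0.848% to 1.67% of all counts. As a percentage of counts they made up 1.33 ± 0.19% in controls, 1.40 ± 0.18% in heterozygous mice and 1.17 ± 0.19% in homozygous mice (mean ± SD, n = 6 each). In CPM (reads of a gene per 1000000 counts of its library) the sum ranged from 11441 to 16323 in controls, 12147 to 16745 in heterozygous mice and 8479 to 13822 in homozygous mice, so the 3 groups overlapped. The log2 ratio of group means was -0.19 between homozygous and control mice, 0.07 between heterozygous and control mice and -0.25 between the homozygous and heterozygous groups, and no test was made of a sum over members. The pooled SD of log2 sums within groups was 0.21. The first ratio was -0.11 without homozygous 3 and -0.12 without control 1, and the second ran from 0.01 without heterozygous 2 to 0.13 without control 1. Leaving out Defa31, Defa37 and Defa42, whose 150-base windows all occur in 1 other member, gave -0.19, 0.07 and -0.26. Other members that share reads stayed in this sum, among them Defa2 and Defa33 with 0% of windows unique.

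Few genes accounted for most of these counts. Defa24 alone provided 24.5% of the summed level, and Defa24, Defa22, Defa21, Defa30 and Defa38 together 78.1%. In these 5 genes 89.2% to 100% of the 150-base windows were unique, against 0% in Defa2, Defa31, Defa33, Defa37 and Defa42. Shared reads may be missing from the levels of such members, and their effect on this ranking was not tested. Per kb of transcript, mean levels over the 18 libraries were 7590 CPM for Defa24, 5649 for Defa22, 4955 for Defa21, 3662 for Defa30 and 3067 for Defa38. Defa38 was thus the only member of the kind with 11 cysteine codons among the 5 highest. Defa5 followed at 1018 CPM per kb, then Defa39 at 649 and Defa29 at 618, and the lowest coding member tested was Defa35 at 25.5. The 3 tested pseudogenes were low, with 93.0 CPM per kb for Defa-ps6, 19.2 for Defa-ps7 and 15.0 for Defa-ps1.

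**Figure D2:**
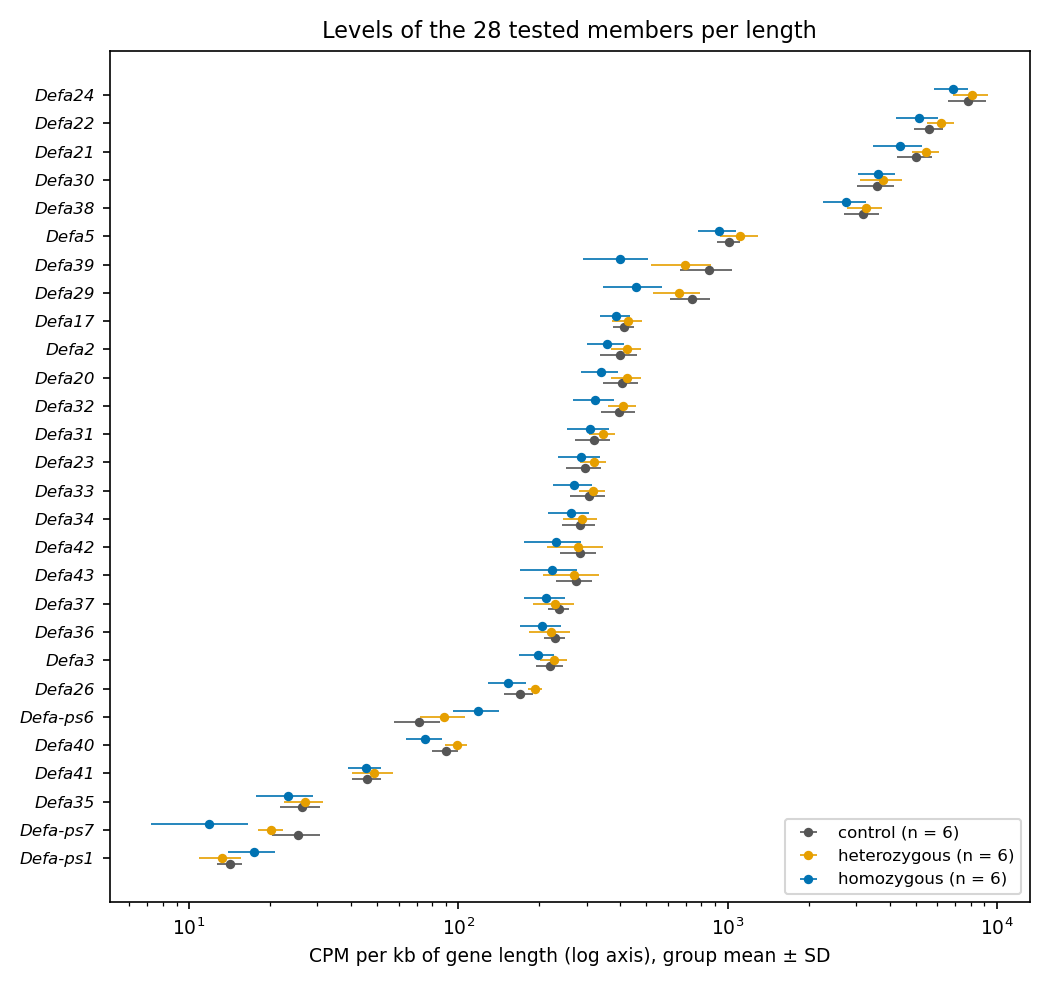
Mean level of each of the 28 tested members in CPM per kb of transcript (log axis), by group (n = 6 libraries each, error bars show SD). Over all libraries the means run from 15.0 CPM per kb for Defa-ps1 to 7590 for Defa24, and Defa24 is the highest member in each group. Reads shared by near-identical members may be missing from their levels, which was not tested.

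The remaining 17 members did not exceed 3 CPM in at least 4 libraries and were not tested. Among them the coding genes Defa28 (60 to 132 counts per library), Defa27 (7 to 35) and Defa25 (1 to 14) were low. Of the 14 untested pseudogenes, Defa-ps18 (83 to 186 counts) and Defa-ps16 (31 to 123) were the highest. Defa-ps4, Defa-ps5, Defa-ps3, Defa-ps10 and Defa-ps17 reached at most 55, 53, 27, 23 and 29 counts. Defa-ps8, Defa-ps9 and Defa-ps11 reached at most 3, 3 and 4 counts, and the 4 at 0 counts, Defa-ps12 to Defa-ps15, stayed under the 3 counts that a count of 0 allows.

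The transgene was expressed according to the labels. The level of Ppara was 25.8 to 47.4 CPM in controls, 107 to 196 in heterozygous mice and 184 to 279 in homozygous mice. Libraries held 38528522 to 50376371 counts. Libraries differed in the tissue they sampled. The summed level of 10 smooth muscle genes ranged from 682 to 6140 CPM in controls, 852 to 4510 in heterozygous mice and 4157 to 9690 in homozygous mice, and that of 10 B cell genes from 14.0 to 513, 11.3 to 292 and 9.58 to 83.8 CPM. Of the 5 neutrophil markers, Elane, Mpo and Ly6g reached at most 16, 20 and 8 counts in any library, and S100a8 and S100a9 at most 260 and 606 counts, both in a homozygous library. S100a9, the only one tested, had a log2 fold change of 1.496 ± 1.22 in homozygous against control mice (edgeR adjusted p = 0.802).

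In homozygous against control ileum, 3 members changed by edgeR's quasi-likelihood test at a Benjamini-Hochberg adjusted p under 0.05 over 13709 genes. Defa39 and the pseudogene Defa-ps7 fell to about 0.47 times the control level and the pseudogene Defa-ps6 rose 1.68-fold. None of the 20 tested genes with 6 or 7 cysteine codons was called, and 18 of them had a log2 fold change below 0. At the share of all genes called, 0.452%, 0 of 20 is no result about these genes. The 3 calls among 28 members compare with 0.452% of all genes tested (0.0438% lower and 0.408% higher). At the unadjusted p under 0.001 that the study used, 4 members passed, against 0.781% of genes, the fourth being Defa29.

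Defa39, which encodes a cryptdin-related sequence peptide, had a lowest, median and highest level of 272, 440.2 and 556 CPM in controls. The corresponding values were 259, 333 and 494 CPM in heterozygous mice and 111, 215 and 249 CPM in homozygous mice. Every homozygous library was therefore below every control library, whereas heterozygous libraries overlapped the controls. Mean levels were 429 ± 94.2, 350 ± 88.6 and 201 ± 54.6 CPM (SD, n = 6 each). The log2 fold change in homozygous against control mice was -1.08 ± 0.21 (SE), with an edgeR adjusted p of 0.018. Defa39 was the only 1 of the 28 members whose homozygous and control libraries did not overlap, against 0.817% of genes tested. An exact permutation test of log2 CPM gave p = 0.00216 (two-sided, unadjusted), the smallest p that 6 against 6 libraries allow. Since Defa39 was chosen for its p in the same libraries and its groups do not overlap, this value restates that separation. Without homozygous replicate 5 or homozygous replicate 6 the edgeR adjusted p was 0.0532 or 0.0584, and with only the 12 libraries compared it was 0.0506. Without the 4 libraries highest in B cell genes (control 2, control 3, heterozygous 2 and homozygous 1) it was 0.0888 at a fold change of -1.19.

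Defa29, the member most similar to Defa39 in its levels across libraries, followed the same order. Its lowest, median and highest levels were 271, 380.1 and 443 CPM in controls, 237, 337 and 421 CPM in heterozygous mice and 161, 242 and 301 CPM in homozygous mice. The homozygous and control ranges overlapped only between 271 and 301 CPM. The log2 fold change was -0.67 ± 0.17, with an edgeR adjusted p of 0.116, which did not pass. DESeq2 gave an adjusted p of 0.00686 for Defa29, and the other fits gave 0.0574 to 0.337.

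Defa-ps7, the short pseudogene that resembles the start of Defa38, had 41 to 223 counts per library. Its lowest, median and highest levels were 2.81, 4.69 and 5.04 CPM in controls and 0.932, 1.96 and 3.10 CPM in homozygous mice, with 3.00, 3.42 and 3.99 CPM in heterozygous mice. The homozygous and control ranges overlapped in the single lowest control library and the single highest homozygous library. The log2 fold change was -1.09 ± 0.23, with an edgeR adjusted p of 0.0413. Above 3 CPM were 5 of 6 control, 5 of 6 heterozygous and 1 of 6 homozygous libraries, so this pseudogene passed the filter mainly through the groups where it was high. It was therefore also fitted with a filter of 10 counts in every library, and was called again with an edgeR adjusted p of 0.0405.

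Defa-ps6 moved in the opposite direction. Its lowest, median and highest levels were 16.4, 19.8 and 27.4 CPM in controls, 19.97, 23.9 and 33.7 CPM in heterozygous mice and 26.3, 32.6 and 41.4 CPM in homozygous mice. The heterozygous group lay between the others, and the homozygous and control ranges overlapped through control 5 alone. Its log2 fold change was 0.75 ± 0.16, with an edgeR adjusted p of 0.0413. Defa-ps1, which differs from it at 2 bases, was at 3.39 to 4.49 CPM in controls and 3.73 to 6.67 CPM in homozygous mice, with a fold change of 0.31 ± 0.14 and an edgeR adjusted p of 0.648. The calls of Defa-ps6 and Defa-ps7 were each lost in 18 of 30 fits, of which 13 and 14 left out 1 library. Their adjusted p then reached 0.378 and 0.292, both without the 4 libraries highest in B cell genes, whereas the direction held in all 30.

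**Figure D3:**
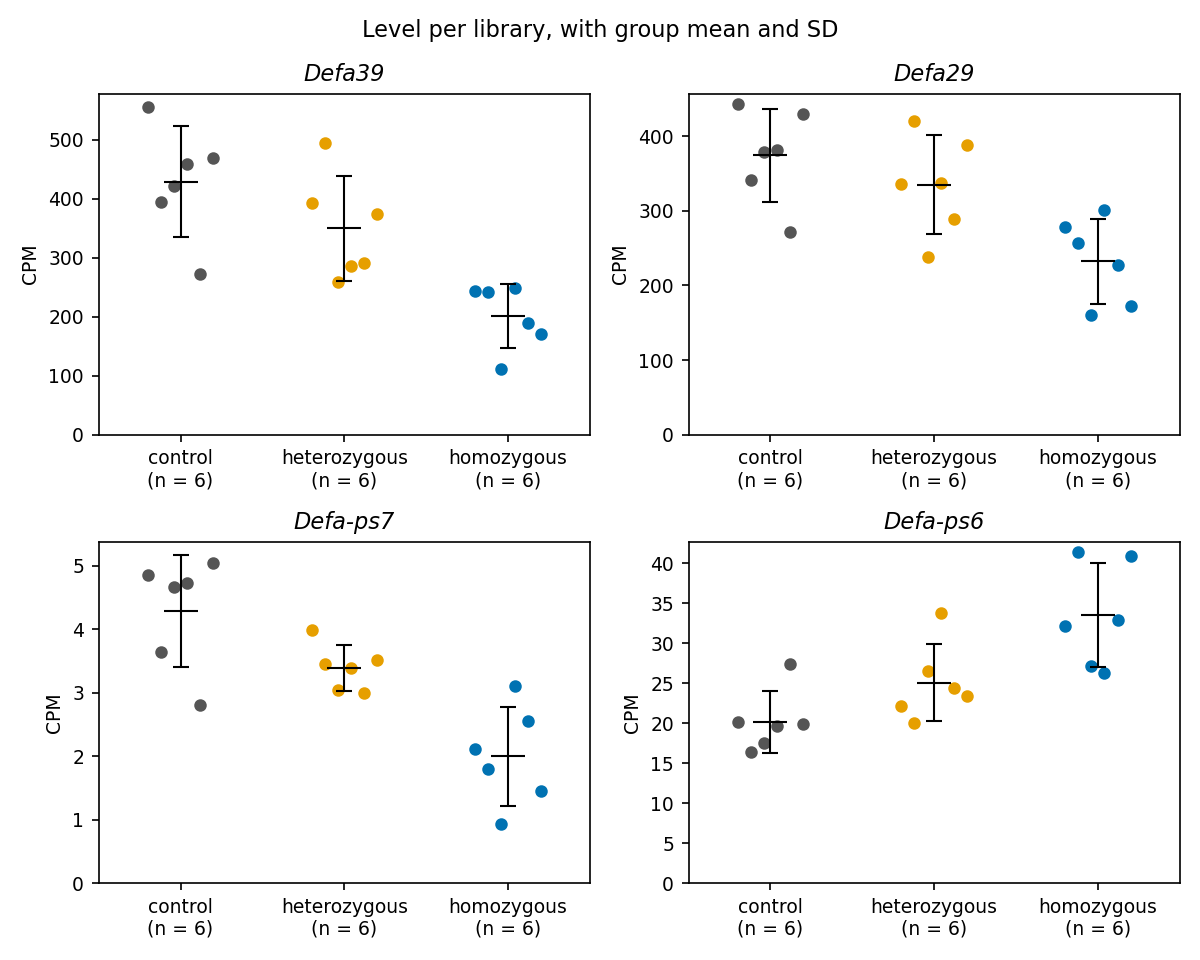
CPM of Defa39, Defa29, Defa-ps7 and Defa-ps6 in each of the 18 libraries, by group, with the mean and SD of 6 libraries. Homozygous libraries are at 111 to 249 CPM for Defa39, below the lowest control library at 272 CPM, and at 26.3 to 41.4 CPM for Defa-ps6, above all control libraries but control 5.

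The other 24 tested members did not pass at 0.001. Of all 28, 24 had a log2 fold change below 0, against 48% of the genes tested, and the median was -0.14 against 0.005 over all genes. The member median was -0.06 without homozygous 3, -0.08 without control 1 and -0.21 without the 4 libraries highest in B cell genes. The count includes the pairs that share their reads. In the same comparison 10 of 10 smooth muscle genes (median 0.58) and 6 of 6 fibroblast genes (median 0.37) were above 0, with 0 called by edgeR, and against heterozygous mice all 16 were again above 0 (medians 0.74 and 0.52). The part of tissue composition in the shift of the members was not tested. All 5 members with 11 cysteine codons were below 0, with a median of -0.28, although Defa38, the most abundant, was at only -0.19 ± 0.13 and Defa42 and Defa43 at -0.27 and -0.28. The 20 with 6 or 7 cysteine codons had a median of -0.13 and ranged from -0.27 (Defa32) to 0.03 (Defa30). At an unadjusted p under 0.05, 6 members passed against 7.65% of genes, which were the 4 above with Defa32 and Defa-ps1.

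The most abundant members show how small these differences were. Defa24 had a lowest, median and highest level of 2787, 3134 and 4118 CPM in controls, 2804, 3364 and 4198 in heterozygous mice and 2150, 2997 and 3275 in homozygous mice. The 3 ranges overlapped, with the homozygous group reaching lowest. The log2 fold change of Defa24 in homozygous against control mice was -0.17 ± 0.13 (edgeR adjusted p = 0.782). Defa22 was at 2348 ± 290, 2604 ± 302 and 2149 ± 379 CPM in control, heterozygous and homozygous mice (SD, n = 6), with a homozygous fold change of -0.11 ± 0.12. Defa21 was at 2091 ± 304, 2291 ± 259 and 1832 ± 380.2 CPM, with -0.17 ± 0.14. Both were highest on average in heterozygous mice. Defa30 was at 1431 ± 226, 1502 ± 269 and 1439 ± 226 CPM, with 0.03 ± 0.14, and Defa38 at 1116 ± 164, 1144 ± 172 and 969 ± 174 CPM. None of these 5 passed an unadjusted p of 0.05 in this comparison. Leaving out 1 library moved the fold change over -0.23 to -0.09 for Defa24, -0.17 to -0.04 for Defa22 and -0.25 to -0.08 for Defa21.

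**Figure D4:**
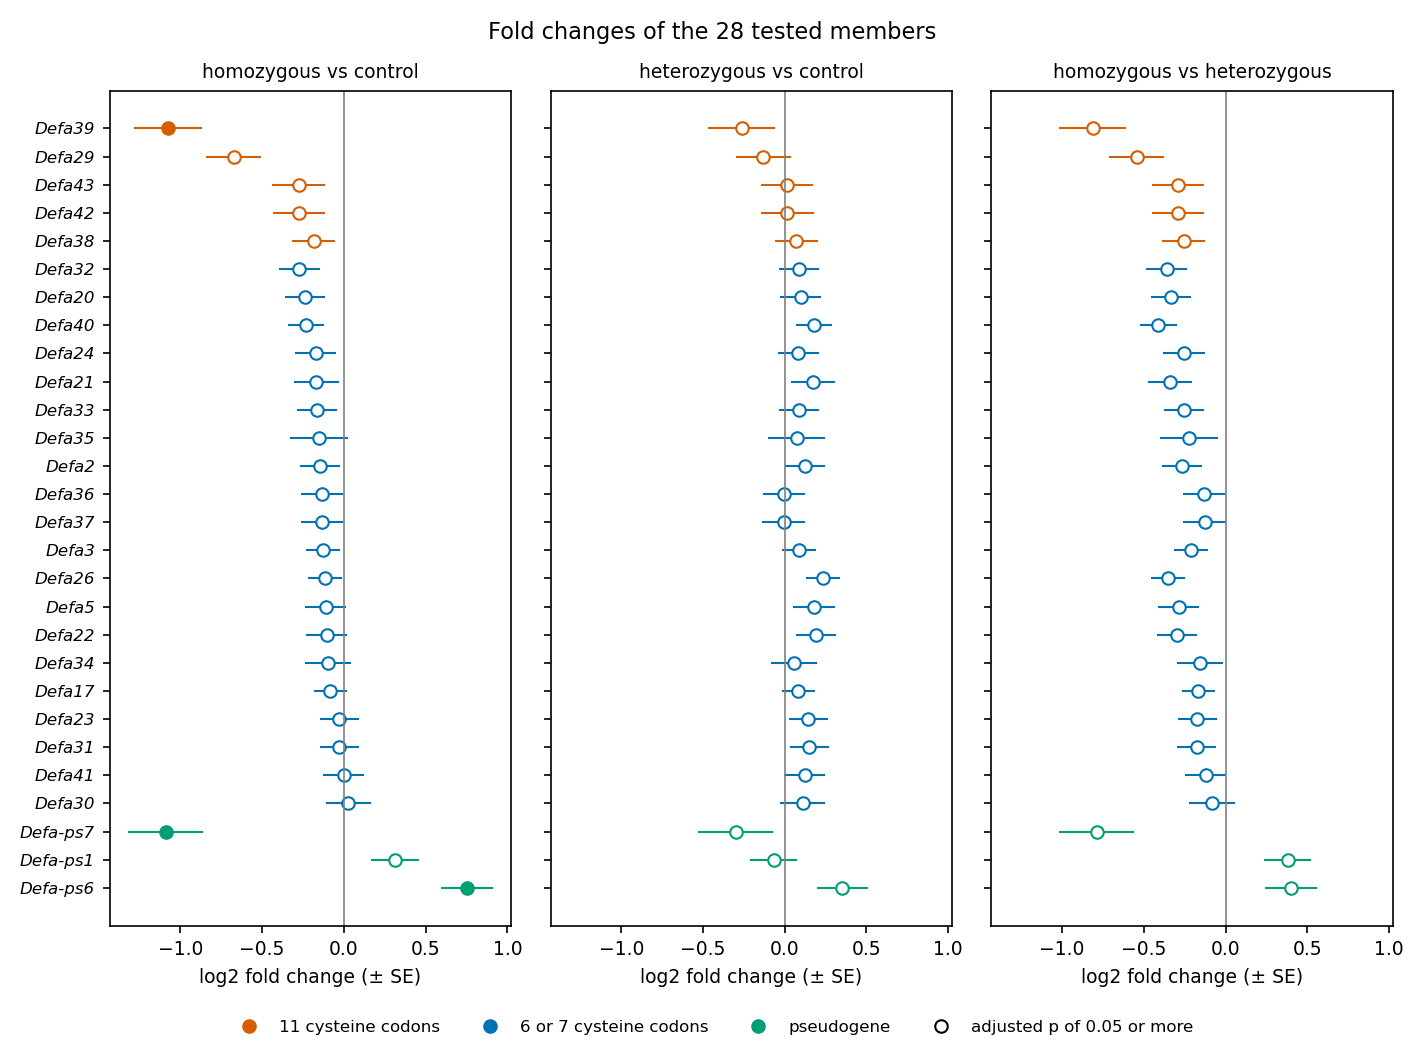
Log2 fold change ± SE of each of the 28 tested members in the 3 comparisons (18 libraries in 1 edgeR fit), coloured by kind of member, with filled points where the adjusted p was under 0.05. Defa39 (-1.08), Defa-ps7 (-1.09) and Defa-ps6 (0.75) are filled in homozygous against control, and no member is filled in the other comparisons.

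In heterozygous against control ileum, no member passed the test. The edgeR test called 0 of 28 members against 0.306% of all genes, and DESeq2, limma-voom and the limma trend test on log2 CPM also called 0. None passed an unadjusted p under 0.001 (0.547% of genes), and 2 passed 0.05 (5.38% of genes). These were Defa-ps6 at 0.35 ± 0.16 and Defa26, a cryptdin of low level, at 0.23 ± 0.10 (edgeR adjusted p = 0.873 for both). In no member did the 2 groups fail to overlap (0.467% of genes). Only 6 members had a fold change below 0, with pairs that share their reads counted separately, against 48.4% of genes, and the median was 0.09. That median was 0.16 without control 1, 0.13 without heterozygous 3, 0.05 without heterozygous 2, 0.04 without control 2 or control 5 and 0.01 without the 4 libraries highest in B cell genes. The largest decreases were those of Defa-ps7 at -0.30 ± 0.23 and Defa39 at -0.26 ± 0.20.

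In homozygous against heterozygous ileum, edgeR called no member, and no gene at all (0%). Defa39 had the lowest p, at a log2 fold change of -0.81 ± 0.21 with an edgeR adjusted p of 0.509, and was the only member under 0.001 (0.16% of genes). DESeq2 called it with an adjusted p of 0.0468. Homozygous and heterozygous libraries did not overlap for Defa39, where the highest homozygous library was at 249 CPM and the lowest heterozygous one at 259 CPM, nor for Defa26 (42.6 to 64.9 against 68.6 to 79.3 CPM), compared with 0.255% of genes. At an unadjusted p under 0.05, 13 members passed against 7.43% of genes, of which 11 were lower against 3.82% of genes. Leaving out 1 library gave 10 to 20 members, the 20 without homozygous 2. The lower ones were Defa39, Defa29 and Defa-ps7 with 8 cryptdins of 6 cysteine codons, such as Defa40 at -0.41 ± 0.11 and Defa22 at -0.30 ± 0.12, and the higher ones Defa-ps6 at 0.40 ± 0.16 and Defa-ps1 at 0.38 ± 0.14. Of the 28 members 26 were below 0, against 49.6% of genes, with a median of -0.26. This count and those under 0.05 take members that share their reads separately, so the members are not independent observations. Among them are Defa2, Defa20 and Defa32, with 0% to 0.362% of windows unique. The homozygous libraries are the same in this comparison and the first, so the values are not independent. A single library contributed to these low values, as homozygous 3 was the lowest of the 18 libraries for 26 of the 28 members, and it stood apart in tissue markers too. Among the 18 libraries it had the highest summed level of smooth muscle (9690 CPM), fibroblast (4841 CPM) and neutrophil genes (20.7 CPM) and the lowest of Paneth cell genes (12763 CPM), distal ileum genes (4193 CPM) and genes of the proximal intestine (71.2 CPM). Without it, 10 members passed 0.05 and the median was -0.17. In the same comparison 3 of 5 distal ileum genes had an unadjusted p under 0.05, all lower and none called by edgeR, at -0.49 for Fabp6, -1.20 for Fgf15 and -0.31 for Guca2a. Their part in the values of the members was not tested.

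To compare members within each library, the 4 members with the lowest p were also expressed as a log2 ratio to Defa24 in the same library, an analysis added after the data had been seen. In homozygous against control mice Defa39 was lower by -0.92 relative to Defa24, with no overlap between groups (exact permutation test, two-sided, p = 0.00216). Defa-ps6 was higher by 0.92, again with no overlap (exact p = 0.00216). Defa-ps7 was at -0.94 (exact p = 0.00649) and Defa29 at -0.51 (exact p = 0.0108). Since the 4 members were chosen for their p in the same libraries, and Defa24 itself moved little, these ratios largely restate the differences above. Relative to the summed level of the Paneth cell genes Lyz1, Ang4, Mmp7 and Itln1 the differences were -0.92, 0.92, -0.93 and -0.51 (exact permutation p = 0.00433, 0.00216, 0.00433 and 0.0195). In heterozygous against control mice, Defa39, Defa-ps7, Defa29 and Defa-ps6 were at -0.35, -0.35, -0.21 and 0.26 relative to Defa24 (exact permutation p = 0.0541, 0.039, 0.167 and 0.232). Relative to the summed Paneth cell genes they were at -0.43, -0.44, -0.30 and 0.18 (exact permutation p = 0.0368, 0.0173, 0.0476 and 0.34). In homozygous against heterozygous mice, Defa39, Defa-ps7, Defa29 and Defa-ps6 were at -0.58, -0.58, -0.30 and 0.65 relative to Defa24 (exact permutation p = 0.0173, 0.0346, 0.119 and 0.00216). Relative to the summed Paneth cell genes they were at -0.48, -0.49, -0.21 and 0.75 (exact permutation p = 0.0411, 0.0498, 0.26 and 0.00216). In this comparison only the groups of Defa-ps6 did not overlap. The p-values of these 24 ratio tests are unadjusted.

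Likeness between members was described by Pearson's r of log2 CPM over the 18 libraries, which share depth and tissue, with no test. The median over the 378 pairs of tested members was 0.729. Defa39 was most alike to Defa29 (0.958), and Defa-ps7 to Defa39 (0.919). These genes share no exact 150-base window. Defa-ps7 was 97.6% identical to Defa39, and whether reads aligned to it with mismatches was not tested. Defa24 was most alike to Defa2 (0.984), Defa22 to Defa21 (0.969), Defa38 to Defa33 (0.929) and Defa30 to Defa17 (0.895). Defa39 had an r of 0.683 with Defa24. Defa-ps6 stood apart, since its highest r was 0.663, with Defa-ps1, and its r with Defa39 was -0.728. The libraries come from 3 groups whose means differ in opposite directions for Defa39 and Defa-ps6, which enters these values. Within the control, heterozygous and homozygous groups (n = 6 each) r was 0.975, 0.856 and 0.922 for Defa39 with Defa29, and 0.924, 0.647 and 0.829 for Defa-ps7 with Defa39. For Defa-ps6 it was 0.749, 0.335 and 0.834 with Defa-ps1, and -0.582, -0.783 and 0.226 with Defa39, so that the last relation did not keep its sign.

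Other Paneth cell genes are given for comparison. Of 16 listed, edgeR called 0 in any of the 3 comparisons, where 0.452%, 0.306% and 0% of all genes were called, so that 0 of 16 is no result about these genes. In homozygous against control mice 13 were below 0 (48% of all genes), with a median of -0.10. Lyz1, which encodes lysozyme, was at 5571 to 8266 CPM in controls and 4320 to 6480 CPM in homozygous mice, with a log2 fold change of -0.16. That of Mmp7, which processes the alpha-defensin precursors, was -0.02, that of the lectin gene Itln1 -0.22 and that of the angiogenin gene Ang4 -0.08. Mptx2, a mucosal pentraxin of Paneth cells, was the single gene with an unadjusted p under 0.05 in homozygous against control mice. In homozygous against heterozygous mice Lyz1 (-0.38), Itln1 (-0.26) and Copz2 (0.32) were under 0.05. The Mptx2 levels are given because the homozygous and control groups did not overlap. Its lowest, median and highest levels were 154, 199 and 348 CPM in controls, 85.4, 146 and 234 CPM in heterozygous mice and 44.2, 100.0 and 136 CPM in homozygous mice. Its log2 fold change was -1.07 ± 0.28 (edgeR adjusted p = 0.146). Despite the negative median, the mean summed level of the 16 genes was 18555 CPM in homozygous mice (12763 to 21097) and 18089.6 CPM in controls (14775 to 23911), since Reg3b and Reg3g, which are also made by enterocytes, were at 0.30 and 0.35. Of 15 tested genes for Paneth cell formation or granule processing, among them Sox9, Atoh1, Gfi1 and Xbp1, edgeR called 0 in any comparison. In addition, 0 passed an unadjusted p under 0.05, against 7.65% (homozygous against control), 5.38% (heterozygous against control) and 7.43% (homozygous against heterozygous) of all genes. At these shares, 0 of 15 is again no result about the genes.

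Across libraries the level of Defa39 was correlated with that of distal ileum markers, a sum made up mostly of Fabp6. The summed level of Fabp6, Slc10a2, Fgf15, Guca2a and Cubn, genes high in the distal ileum, was 4669 to 7393 CPM in controls, 4861 to 6615 in heterozygous mice and 4193 to 6241 in homozygous mice. Fabp6, the ileal bile acid binding protein, had a log2 fold change of -0.54 in homozygous against control mice (edgeR adjusted p = 0.428) and a mean level of 3720 CPM. Fgf15 was at -0.97, Guca2a at -0.16, Slc10a2 at 0.04 and Cubn at 0.12. Of the genes of the proximal intestine, the 2 tested, Slc40a1 and Cybrd1, were at 0.03 and 0.05. Over the 18 libraries the r of Defa39 with this sum was 0.827, against 0.759 for Defa29, 0.683 for Defa-ps7, -0.603 for Defa-ps6 and 0.673 for the summed members. Within groups the r of Defa39 was 0.967 in controls, 0.596 in heterozygous mice and 0.568 in homozygous mice (n = 6 each). These are descriptions over libraries that also share depth and tissue, and the part of position along the ileum in the Defa39 difference was not tested. The r of Defa39 was -0.530 with the summed neutrophil genes, -0.429 with smooth muscle and -0.412 with fibroblast genes. It was 0.414 with stem cell, 0.382 with B cell, 0.335 with goblet cell, 0.302 with proximal intestine and 0.204 with Paneth cell genes. With the genes for Paneth cell formation it was -0.144 and with enterocyte genes -0.075. The part of these genes was likewise not tested. All 10 B cell genes had an unadjusted p under 0.05 in homozygous against control mice and edgeR called 0. That difference came from control 2 and control 3, at 513 and 413 CPM, since the other 4 controls were at 14.0 to 18.1 CPM and 5 of 6 homozygous libraries at 9.58 to 16.7 CPM.

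**Figure D5:**
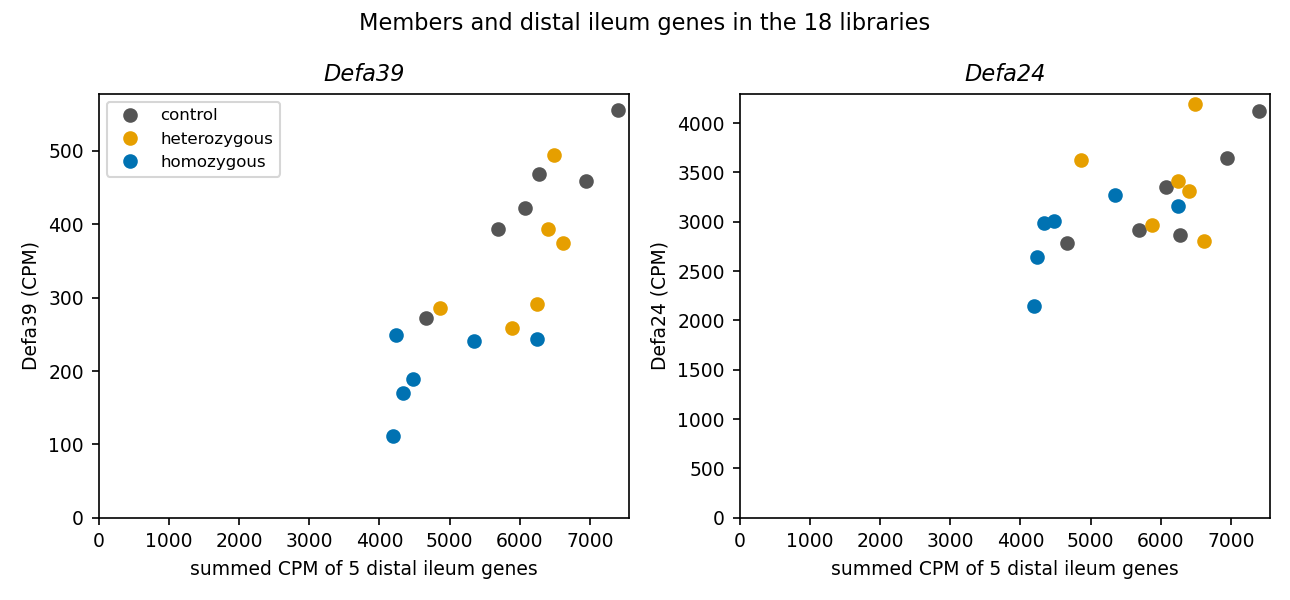
CPM of Defa39 and of Defa24 against the summed CPM of Fabp6, Slc10a2, Fgf15, Guca2a and Cubn in the 18 libraries, coloured by group. Homozygous libraries (111 to 249 CPM for Defa39) have sums of 4193 to 6241 CPM with a mean of 4804 CPM, against a mean of 6173 CPM in controls.

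Genes around the family were also counted. Within 1 Mb of the members there were 77 other genes, of which 18 were tested. The edgeR test called 0 of them in any comparison, which at the shares over all genes given above is no result about them. In homozygous against control mice 1 had an unadjusted p under 0.05, the kinase gene Nek3 at -0.32, against 7.65% of genes, and 12 of 18 were below 0, against 48%. In homozygous against heterozygous mice 3 had such a p (Alg11, Atp7b and Nek3), against 7.43% of genes, and 16 of 18 were below 0, against 49.6%.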

How the data were processed

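Gene counts, the normalized files and the promoter table were processed as follows. The authors aligned paired-end reads of poly-A selected RNA to the mouse genome (GRCm38) with STAR and deposited, for each library, a raw count per gene from featureCounts, stated to hold uniquely aligned, unambiguous reads. The preparation does not mark strand. The deposited FPKM values were not used, the deposited CPM table gave gene symbols and biotypes, and the deposited log2 CPM table served 1 alternative test.

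CPM was recomputed from the counts, per 1000000 gene counts of a library. Genes above 3 CPM in at least 4 libraries (13709 of 55487) were fitted in edgeR 4.0.16 (R 4.3.3) with TMM normalization, 1 coefficient per genotype over all 18 libraries and the quasi-likelihood F-test, with Benjamini-Hochberg adjustment over all genes tested and a threshold of 0.05. Standard errors were taken from the fold change and its F statistic. Alternatives used DESeq2 1.42.0, limma 3.58.1, other normalizations, filters, covariates and library sets. The test was first run on simulated counts, and the outcome is not reported here.

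Members, gene lists and tests were chosen with earlier results of these data known. Values were given for each member with an unadjusted p under 0.001 in a comparison and for the 5 with the highest mean CPM. Exact permutation tests ran over the 924 arrangements of 6 against 6 libraries. Transcripts, matched by gene identifier for 45 of 45 members, came from GENCODE M21 and promoters, of 300 bases, from RefSeq, read in Python 3.11.15. With 6 mice per group, differences in a low gene rest on few counts, and p-values reflect the spread between mice. The study does not state that replicate numbers pair libraries of different genotypes, so the block was fitted only as an alternative.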

Additional observations from a re-analysis of the deposited data

Results flagged for a closer look

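In 1 of the 87 groups of 6 libraries checked, a single library stood far from the others, where chance alone gives about 1 in 20 groups. Defa-ps6 was at 27.4 CPM in control 5 and at no more than 20.2 CPM in the other control libraries, so that the gap to the next library made up 0.655 of the range of the group, above Dixon's critical value for 6 samples. Defa-ps6 remained called in homozygous against control mice without this library, as it did without heterozygous 2, heterozygous 4, homozygous 3 or homozygous 4.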

How the results depend on the processing

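Homozygous against control gave 3 called members, and 0 to 4 over 13 alternative settings. The count was 1 with protein-coding genes only (where Defa-ps6 and Defa-ps7 are not fitted), 1 with sex as a covariate, 0 with only the 12 libraries compared and 0 without the 4 libraries highest in B cell genes. The cause was not tested. Leaving out 1 library at a time gave 0 to 3 calls. Defa39 was called in 27 of 31 fits, with log2 fold changes from -1.19 to -0.96. With replicate number as a block the count was 1, and the edgeR adjusted p was 0.0129 for Defa39, 0.116 for Defa-ps6 and 0.0993 for Defa-ps7. Of 18 same-numbered pairs of libraries, 8 had a correlation above 0.1 (range -0.45 to 0.53). Pairs with different numbers were not compared, so these values do not decide whether replicate numbers pair libraries. Heterozygous against control gave 0 in all 31 fits, and homozygous against heterozygous 0 in all but DESeq2, which called 1. The log2 ratio of summed levels moved by less than the pooled SD of 0.21 in each alternative, from -0.25 to -0.11 for homozygous against control, -0.31 to -0.18 for homozygous against heterozygous and -0.02 to 0.13 for heterozygous against control. The sign of the last turned without the 4 libraries highest in B cell genes.

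Fold changes near 0 changed sign. Without the 4 libraries highest in B cell genes, Defa24 (-0.013), Defa30 (-0.019) and Defa38 (-0.041) were lower in heterozygous than in control mice and Defa30 was at -0.054 in homozygous against control mice. Leaving out 1 library, Defa30 ranged from -0.034 to 0.105 in homozygous against control mice and from -0.148 to 0.003 in homozygous against heterozygous mice. Defa-ps7 rests on 41 to 223 counts per library, and the 17 members below the filter were not tested.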
